A study of Mus musculus with 12 samples.

Results

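This report describes 10 genes of fat cells in total colon: Adipoq, Retn, Cfd, Lep, Plin1, Cidec, Plin4, Lpl, Fabp4 and Pck1. They were taken by symbol from a list of adipocyte genes, and all 10 were among the 30263 genes of the colon count tables. The filter on low counts kept 9 of them for testing, and Lep fell short of it. RNA was sequenced from total, snap-frozen colons of C57BL/6 mice, 3 libraries labelled WT and 3 labelled S1PR4 KO, where S1PR4 is a sphingosine 1-phosphate receptor of lymphoid and other blood cells. Both groups had received azoxymethane (AOM, 10 mg/kg), a carcinogen, and repeated courses of dextran sulfate sodium (DSS, 0.5% in drinking water), which injures the colon lining, and were taken at day 84. The labels give no age, do not say which cells lack the receptor, and do not say whether each replicate is a separate animal, so the p-values measure only the spread between these libraries. The series also holds CD8+ T cells sorted from PyMT mammary tumors, and none of the 10 genes was among the 357 genes of those tables (0 members listed).

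The colon libraries held 7304082 to 8652561 counts. S1pr4 was counted in all of them and averaged 5.54 ± 2.14 CPM (SD, n = 3) in the libraries labelled WT and 19.1 ± 2.73 CPM (SD, n = 3) in those labelled KO. Every KO library lay above every WT library, with a log2 difference of 1.78 ± 0.34 (SE, edgeR adjusted p = 0.829, DESeq2 adjusted p = 0.0059). The counts thus did not show a loss of S1pr4 in the KO libraries. Counts per gene do not tell which part of the gene is covered, so they cannot serve as a check of the labels. WT and KO below name the libraries by their labels, and every direction rests on those labels. Levels are in CPM, counts scaled to library size with TMM factors. Xist, expressed in female cells, was at 515 to 591 CPM in WT replicate 1 and KO replicates 2 and 3, and at 6.75 CPM or less in WT replicates 2 and 3 and KO replicate 1, where the Y-linked gene Ddx3y stood at 63.3 to 81.1 CPM. These are called the Xist-high and the Y-linked libraries.

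White adipocytes store triglyceride in a single large lipid droplet, release fatty acids when fuel is needed, and secrete hormones and complement proteins. The colon wall itself holds few of them, and most fat cells at this site lie outside it, in the mesentery and the tissue around the colon. The 10 genes cover 3 roles: secreted proteins (Adipoq, Retn, Cfd, Lep), lipid droplet proteins (Plin1, Cidec, Plin4), and enzymes and carriers of fat metabolism (Lpl, Fabp4, Pck1). Genes of the last role are also used by other cells, Lpl by macrophages and muscle, Fabp4 by capillary endothelium and macrophages, and Pck1 by intestinal epithelium. In RNA from whole tissue, fewer cells of a type and less RNA per cell cannot be told apart.

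Sequences before the start sites were read from RefSeq (build GRCm38.p6), which matched 8 of the 10 members, all but Fabp4 and Lpl. Windows from 250 bases before to 50 bases after each start were searched on both strands for TTGCNNAA, letters bound by C/EBP factors, which drive fat cell differentiation together with PPARG. They were found in 3 of the 8 members, Lep, Plin1 and Cidec (in 1 of its 2 windows), and in 10.8% of all 32851 windows of the same length. The nuclear receptor letters AGGTCA were found in 0 of the 8 members and in 16.3% of all windows. The letters TATAAA likewise were in 0 of the 8 and in 13.6% of all windows. The 250 bases before the start are shown for Lep and Plin1, which hold the letters, and for Adipoq, the member to which the other profiles are compared below, which does not. Capitals mark TTGCNNAA, which begins 55 bases before the start of Lep, and 187 and 58 bases before the start of Plin1. These starts are those of RefSeq and can differ from the gene positions given below. The position of Plin1 on the minus strand reaches 79732903, so the site at 58 bases lies inside that span. The matching window of Cidec, 113434715-113435014, lies inside the gene position of Cidec as well.
Lep, chr6:29059971-29060220, plus strand: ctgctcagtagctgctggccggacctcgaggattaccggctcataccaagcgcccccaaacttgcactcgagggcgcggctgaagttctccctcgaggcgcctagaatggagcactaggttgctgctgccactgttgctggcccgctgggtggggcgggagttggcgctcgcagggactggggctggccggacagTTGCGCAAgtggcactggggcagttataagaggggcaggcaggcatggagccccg
Plin1, chr7:79732777-79733026, minus strand: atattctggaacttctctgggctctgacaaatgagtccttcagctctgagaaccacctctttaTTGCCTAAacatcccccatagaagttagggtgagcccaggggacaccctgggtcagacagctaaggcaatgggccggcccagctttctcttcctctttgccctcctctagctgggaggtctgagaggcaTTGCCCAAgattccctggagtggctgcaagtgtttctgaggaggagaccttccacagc
Adipoq, chr16:23146286-23146535, plus strand: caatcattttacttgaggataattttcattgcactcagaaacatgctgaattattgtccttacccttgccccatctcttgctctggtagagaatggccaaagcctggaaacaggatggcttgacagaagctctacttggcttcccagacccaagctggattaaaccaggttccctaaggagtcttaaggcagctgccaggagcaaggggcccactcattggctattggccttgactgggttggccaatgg
A match of letters is a description and not a binding site.

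Fat cell transcripts were most abundant in 1 library, KO replicate 1. Adipoq, Retn, Plin1 and Cfd varied from 9.99-fold to 21.7-fold between the 6 libraries, Plin4 10.1-fold and Cidec 3.71-fold, while Lpl, Fabp4 and Pck1 varied by less than 2-fold. The summed level of Adipoq, Retn, Plin1 and Cfd was 84.6 CPM in KO replicate 1 and 36.6 CPM in KO replicate 3. It was 29.3 CPM in WT replicate 1 and 17.5 CPM in WT replicate 3, and lowest at 14 CPM in KO replicate 2 and 8.02 CPM in WT replicate 2. By this sum the libraries of both genotypes were interleaved. These 4 genes are the ones that shared a profile in these same values, as described below. Summed over all 10 genes, the level was 321, 309 and 317 CPM in WT replicates 1 to 3. It was 449, 273 and 293 CPM in KO replicates 1 to 3, so KO replicates 2 and 3 lay below every WT library. Fabp4, Lpl and Pck1 summed to 214, 282 and 267 CPM in WT and to 306, 237 and 240 CPM in KO. Of the 9 tested members, 7 were highest in KO replicate 1, which was the highest library for 14.6% of all 17195 tested genes (for comparison, WT replicate 1 was so for 18.3% and KO replicate 3 for 22.6%). Lep, untested, was highest there as well.

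**Figure D1:**
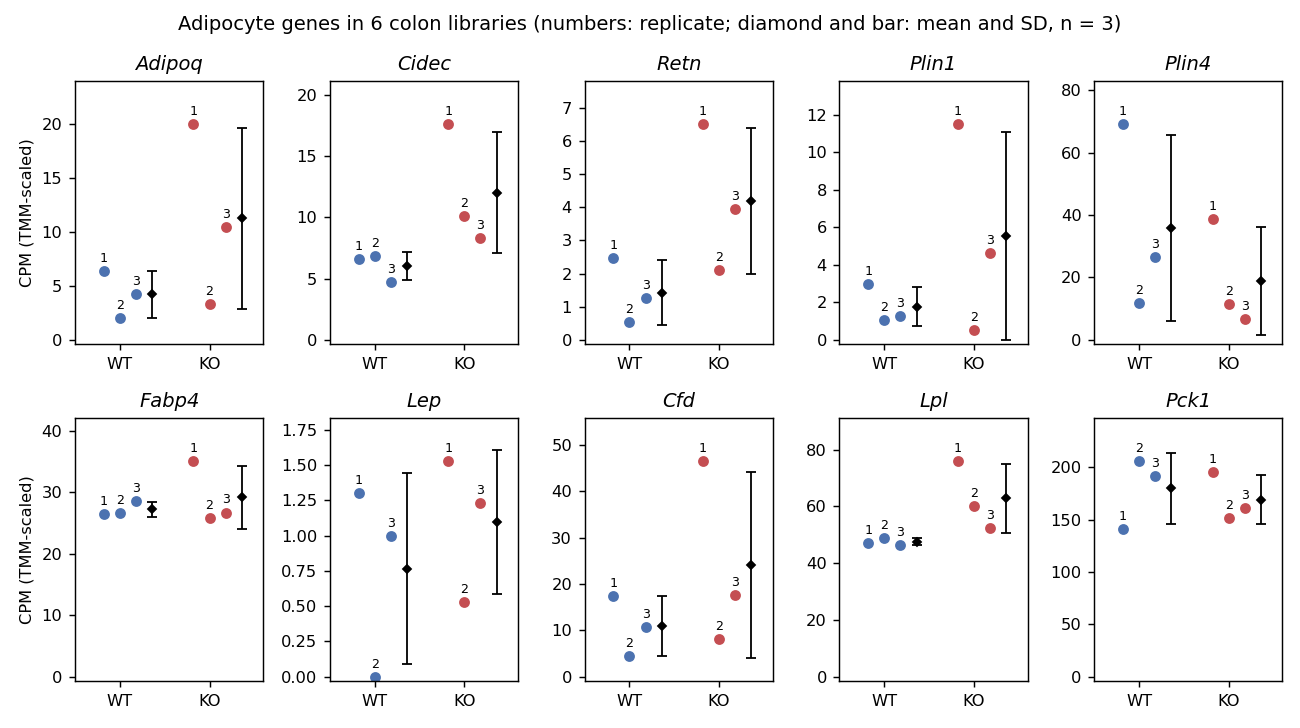
Level of each of the 10 genes in TMM-scaled CPM (linear axis) in the colon libraries labelled WT (blue) and KO (red). Each point is 1 library with its replicate number, and the diamond and bar are the mean and SD (n = 3). KO replicate 1 is the highest library for every gene except Plin4, which is highest in WT replicate 1, and Pck1, which is highest in WT replicate 2.

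Adipoq (ENSMUSG00000022878, GRCm38 chr16:23146536-23158028, plus strand) encodes adiponectin, a hormone made almost only by adipocytes that raises insulin sensitivity. Its level was 6.39, 2.01 and 4.25 CPM in WT replicates 1 to 3 and 20.0, 3.31 and 10.5 CPM in KO replicates 1 to 3, from 15 to 157 raw counts. KO replicates 1 and 3 lay above all WT libraries and KO replicate 2 below WT replicates 1 and 3, so the groups overlapped. The means were 4.21 ± 2.19 CPM in WT and 11.3 ± 8.40 CPM in KO (SD, n = 3), a log2 difference of 1.41 ± 0.71 (SE) which edgeR's quasi-likelihood test did not call (adjusted p = 0.829).

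Cfd (ENSMUSG00000061780, chr10:79890853-79892655, plus strand) encodes adipsin, a serine protease of the alternative complement pathway that fat cells secrete in large amounts. It stood at 17.5, 4.41 and 10.8 CPM in the WT libraries and at 46.6, 8.07 and 17.6 CPM in the KO libraries. Here too KO replicate 1 stood apart, KO replicate 3 matched WT replicate 1, and the groups overlapped. The log2 difference was 1.14 ± 0.75 (SE), which did not pass edgeR's test (adjusted p = 0.829). Without KO replicate 1 it was 0.23 ± 0.62 (SE).

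Retn (ENSMUSG00000012705, chr8:3655770-3660110, plus strand) encodes resistin, a hormone that in mice comes mainly from white fat. It was counted at 2.48, 0.535 and 1.25 CPM in WT and at 6.51, 2.12 and 3.95 CPM in KO. Only KO replicate 2 kept the groups from separating, since it lay below WT replicate 1. The log2 difference of 1.54 ± 0.63 (SE) did not pass edgeR's test (adjusted p = 0.829), and it was 1.06 ± 0.63 (SE) without KO replicate 1.

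Lep (ENSMUSG00000059201, chr6:29060220-29073877, plus strand) encodes leptin, the satiety hormone whose output follows fat mass. Its raw counts were 11, 0 and 8 in WT and 12, 4 and 9 in KO, too few to test. The count of 0 in WT replicate 2 allows a level of up to 0.401 CPM (3 counts, counting error only), and the other libraries held 0.529 to 1.53 CPM. WT replicate 2, the library in which leptin was not counted, was also the lowest for Adipoq, Cfd and Retn.

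Plin1 (ENSMUSG00000030546, chr7:79720218-79732903, minus strand) encodes perilipin 1, which coats the lipid droplet of fat cells and gates access of lipases. Its levels were 2.96, 1.07 and 1.25 CPM in WT and 11.5, 0.529 and 4.63 CPM in KO, from 4 to 90 raw counts. The KO group held both the highest and the lowest library, 21.7-fold apart. The log2 difference of 1.64 ± 0.98 (SE) did not pass edgeR's test (adjusted p = 0.829) and was 0.53 ± 0.90 (SE) without KO replicate 1.

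Cidec (ENSMUSG00000030278, chr6:113424634-113435760, minus strand) encodes the protein that fuses small lipid droplets into the single droplet of white adipocytes. It stood at 6.62, 6.82 and 4.75 CPM in WT and at 17.6, 10.1 and 8.31 CPM in KO, with every KO library above every WT library. The log2 difference was 0.98 ± 0.34 (SE), and 0.59 ± 0.26 (SE) without KO replicate 1. It did not pass edgeR's test over all genes (adjusted p = 0.829). In its order of libraries Cidec differed from Adipoq: WT replicate 2 was the highest WT library for Cidec and the lowest of all for Adipoq.

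Plin4 (ENSMUSG00000002831, chr17:56100591-56109803, minus strand) encodes perilipin 4, a droplet coat protein of fat cells that muscle makes as well. It was the only tested member with its highest level in WT replicate 1, at 69.1 CPM, followed by 38.8 CPM in KO replicate 1. The other libraries held 26.4 (WT replicate 3), 11.9 (WT replicate 2), 11.4 (KO replicate 2) and 6.81 CPM (KO replicate 3). The groups overlapped, and the log2 difference of -0.91 ± 0.85 (SE) did not pass edgeR's test (adjusted p = 0.860). It was -1.98 ± 0.79 (SE) without KO replicate 1 and 0.00 without WT replicate 1, the library that set the WT mean. Plin4 was the only member that shared annotated exon bases with another gene, 8 bases with Hdgfl2 on the opposite strand.

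Lpl (ENSMUSG00000015568, chr8:68880491-68907448, plus strand) encodes lipoprotein lipase, which frees fatty acids from circulating triglyceride. Its levels were 47.1, 48.9 and 46.5 CPM in WT and 76.0, 60.0 and 52.4 CPM in KO. Every KO library lay above every WT library. The log2 difference of 0.40 ± 0.15 (SE) did not pass edgeR's test over all genes (adjusted p = 0.829) and was 0.24 ± 0.10 (SE) without KO replicate 1.

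Fabp4 (ENSMUSG00000062515, chr3:10204088-10208576, minus strand) encodes a fatty acid carrier of adipocytes, endothelium and macrophages. It stood at 26.4, 26.6 and 28.6 CPM in WT and at 35.1, 25.8 and 26.7 CPM in KO. KO replicate 1 was the one library outside a narrow range. The log2 difference of 0.10 ± 0.16 (SE) lay within the spread between replicates (edgeR adjusted p = 0.906) and turned to -0.06 without KO replicate 1.

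Pck1 (ENSMUSG00000027513, chr2:173153048-173159273, plus strand) encodes the cytosolic carboxykinase that makes glycerol backbones for triglyceride in fat and glucose in liver, kidney and gut. It stood at 141, 206 and 192 CPM in WT and at 195, 151 and 161 CPM in KO. The groups overlapped, with a log2 difference of -0.09 ± 0.17 (SE, edgeR adjusted p = 0.926). WT replicate 2, the lowest library for Adipoq, Cfd and Retn, was the highest for Pck1.

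Per kilobase of coding-transcript exons, Pck1 was the most abundant member, at 65.6 ± 10.1 CPM per kb (SD, n = 6 libraries), and its libraries did not overlap those of Fabp4 at 31.5 ± 3.92 CPM per kb. Cfd followed at 19.0 ± 16.5 and Lpl at 13.4 ± 2.76 CPM per kb, and the range of Cfd, 4.79 to 50.5 CPM per kb, took in all libraries of both Fabp4 and Lpl. Adipoq at 6.00 ± 5.20, Cidec at 5.14 ± 2.60 and Plin4 at 4.74 ± 4.09 CPM per kb did not differ beyond their spread. Retn at 1.78 ± 1.36, Plin1 at 0.944 ± 1.06 and Lep at 0.286 ± 0.175 CPM per kb were the least abundant. The highest count of any gene per base of its annotated exons was between 0.919 and 0.973 in every library. Pck1, Cfd and Fabp4 reached 0.580, 0.396 and 0.307 counts per coding-transcript exon base, so differences in these members may be understated.

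**Figure D2:**
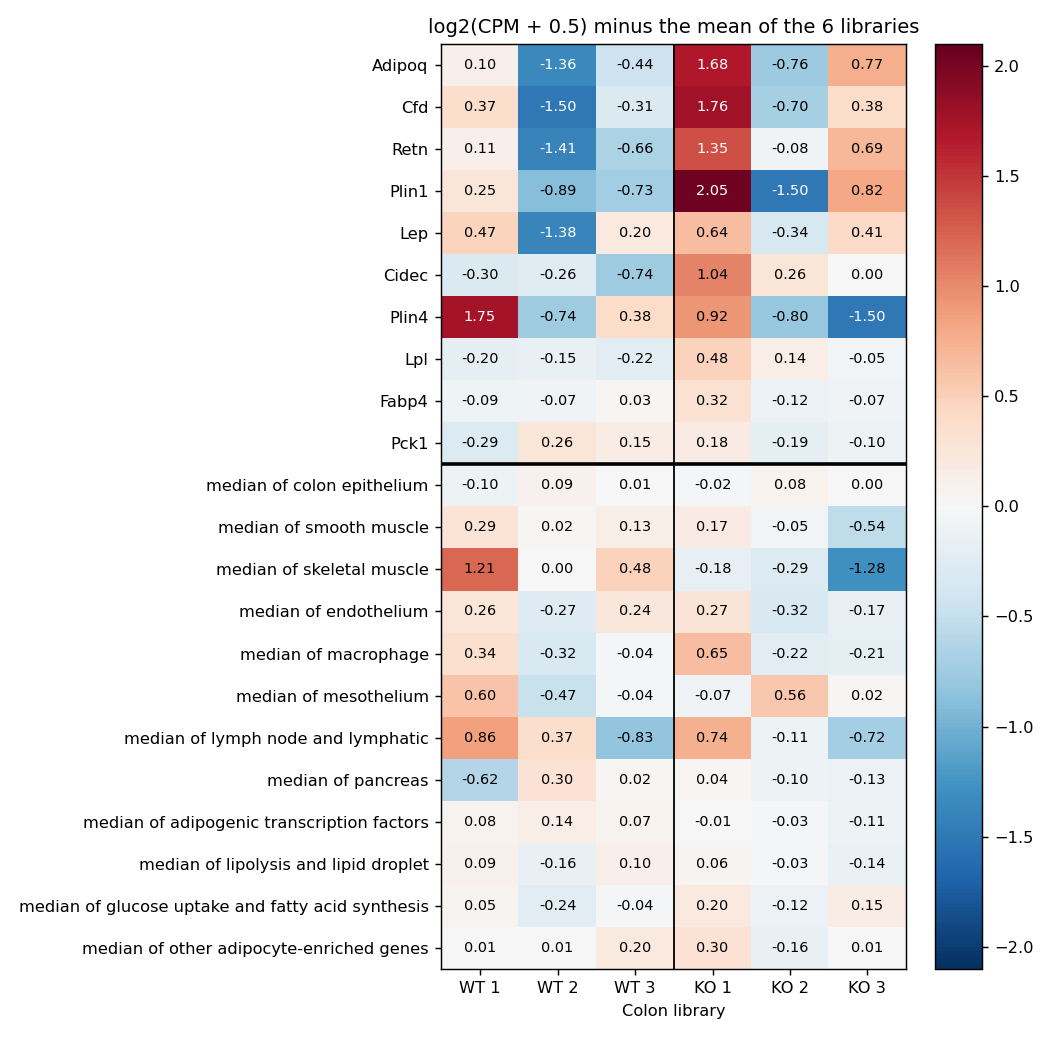
Deviation of each colon library from the mean of the 6 libraries, on the scale log2(CPM + 0.5), for the 10 genes (upper rows) and as the median over the tested genes of other lists (lower rows). Red is above and blue below the mean. Adipoq, Cfd, Retn and Plin1 are highest in KO replicate 1 (1.35 to 2.05), while Plin4 is highest in WT replicate 1 (1.75).

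Adipoq, Cfd, Retn and Plin1 shared 1 profile. For each tested gene the distance to Adipoq was taken as the root mean square difference of the deviations from the 6-library mean on the log2(CPM + 0.5) scale, over 6 libraries. Among 17194 other tested genes Cfd was the nearest to Adipoq (distance 0.22), Retn the second nearest (0.32) and Plin1 the fourth (0.41). A gene at the same level in all libraries lies at 1.00, and 34.5% of tested genes lay nearer than that. Cidec was at rank 158 (0.76), Lpl at 955 (0.87) and Fabp4 at 1526 (0.90), whereas Pck1 at rank 9195 (1.04) and Plin4 at 16153 (1.26) were farther from Adipoq than a flat gene. These distances are a description of 6 libraries that share the same depth range and the same scaling.

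The 4 nearest protein-coding genes outside the list were Car3 (0.35), Cyp2e1 (0.42), Cd200r1 (0.53) and Glb1l2 (0.54). Car3, a carbonic anhydrase abundant in fat and muscle, stood at 43.3, 9.76 and 16.3 CPM in WT and at 63.1, 12 and 35.8 CPM in KO. Cyp2e1, an oxidase of ethanol and fatty acids found in liver and fat, stood at 2.25, 1.2 and 3.50 CPM in WT and at 20.3, 2.51 and 8.17 CPM in KO. Both were highest in KO replicate 1 and lowest in WT replicate 2, as was Adipoq. Cd200r1, an inhibitory receptor of myeloid cells, was counted at no more than 3.70 CPM in any library.

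Within a library the counts of Cfd, Retn and Plin1 kept a steadier ratio to that of Adipoq than their levels did between libraries, and Cidec did not. A small distance to Adipoq already implies a steady ratio, so these ratios restate the distances above and are no separate support. The count of Cfd was 1.68 to 2.74 times that of Adipoq over the 6 libraries, a 1.64-fold range, although the level of Cfd itself ranged 10.6-fold. The ratio of Retn to Adipoq ran from 0.267 to 0.640 (2.40-fold), and that of Plin1 to Adipoq from 0.160 to 0.573 (3.58-fold), with the lowest value at 4 counts of Plin1. The ratio of Cidec to Adipoq ran from 0.792 to 3.40, a 4.29-fold range that exceeded the 3.71-fold range of its level. For Pck1 the ratio to Adipoq ran from 9.73 to 103 and for Plin4 from 0.649 to 10.8, a 16.7-fold range.

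**Figure D3:**
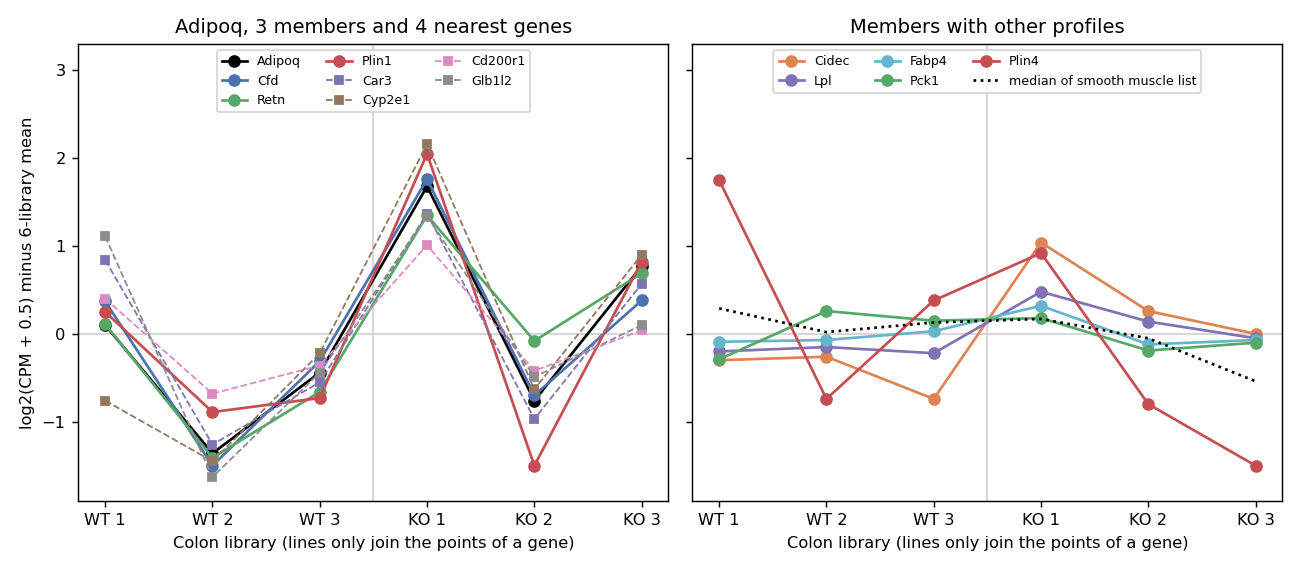
Deviation from the 6-library mean, log2(CPM + 0.5), in each colon library. The left panel shows Adipoq, Cfd, Retn and Plin1 (circles) with the 4 nearest genes outside the list (squares), all highest in KO replicate 1, with Glb1l2 nearly as high in WT replicate 1. The right panel shows the other tested members and the median of the smooth muscle list (dotted), and Plin4 there is highest in WT replicate 1 and lowest in KO replicate 3.

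Plin4 ordered the libraries as part of the smooth muscle genes did. From high to low its order was WT replicate 1, KO replicate 1, WT replicate 3, WT replicate 2, KO replicate 2 and KO replicate 3, and 6 of the 10 smooth muscle genes listed had exactly this order, as had 364 of 17195 tested genes. The distance of Plin4 was 0.42 to Synpo2 and 0.50 to Lmod1, both of smooth muscle, and 0.45 to Ckm, the muscle creatine kinase, against 1.12 to a flat gene and 1.26 to Adipoq. The other 8 smooth muscle genes lay at 0.80 to 1.05, and the other 3 tested skeletal muscle genes at 0.56 (Myh2), 1.03 (Mylpf) and 1.05 (Acta1). All of these 8 smooth muscle genes but Tagln (0.144) reached 0.419 to 0.864 counts per exon base, where differences may be understated. Synpo2 and Lmod1 reached 0.363 and 0.349, so the distances of smooth muscle genes may be affected. The comparison of Plin4 with muscle genes was chosen after the values of Plin4 were seen. The summed level of the skeletal muscle list was highest in WT replicate 1, at 113 CPM against 50.6 to 63.5 CPM in the other WT libraries and 19.3 to 32.5 CPM in KO, and 9 of its 10 genes were in the table. Acta1, skeletal actin, had the smallest p of that list, at 38.9, 33.8 and 42.4 CPM in WT and at 12.3, 17.9 and 11.2 CPM in KO. Its log2 difference of -1.48 ± 0.21 (SE) was called by DESeq2 (adjusted p = 1.7e-05) and not by edgeR (adjusted p = 0.829). The part of muscle RNA in the Plin4 values was not tested.

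As a group, 7 of the 9 tested members had a higher mean in KO and 2 a lower one, where 49.0% of all tested genes had a higher mean in KO. The median log2 difference of the members was 0.98, against 0.00 over all genes. The quasi-likelihood test of edgeR called no member (0 of 9; 0% of all genes passed), with adjusted p-values from 0.829 to 0.926. At an unadjusted p under 0.05 stood 3 members, Cidec, Lpl and Retn, all higher in KO, where 2.62% of all genes were at that level with KO higher, 2.44% with KO lower and 5.06% in either direction. DESeq2 also found 0 members (lowest adjusted p = 0.772; 0.105% of all genes called) and 3 at an unadjusted p under 0.05 (5.34% of all genes). Limma-voom found 0 (lowest adjusted p = 0.132; 0% of all genes) and 3 at an unadjusted p under 0.05 (24.4% of all genes). The groups did not overlap for 2 members, Cidec and Lpl, both with KO higher (4.55% of all genes with KO higher, 5.04% with KO lower, 9.58% in either direction). The highest library held at least 4 times the lowest for 5 of the 9, Adipoq, Retn, Plin1, Plin4 and Cfd, and for 11.0% of all genes.

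The size of the group difference rested on KO replicate 1. Without that library the median over the 9 members was 0.24, and 6 of them had a higher mean in KO. Without WT replicate 2, the lowest library for Adipoq, Cfd, Retn and Lep, the median was 0.60 over 10 members. Lep passed the filter there, so this median is not over the same genes as those over 9 members. KO replicate 1 exceeded the mean of KO replicates 2 and 3 by 4.45-fold for Plin1, 4.27-fold for Plin4, 3.64-fold for Cfd, 2.91-fold for Adipoq, 2.15-fold for Retn and 1.92-fold for Cidec. For Lpl, Fabp4 and Pck1 it did so by 1.35-fold, 1.34-fold and 1.25-fold.

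**Figure D4:**
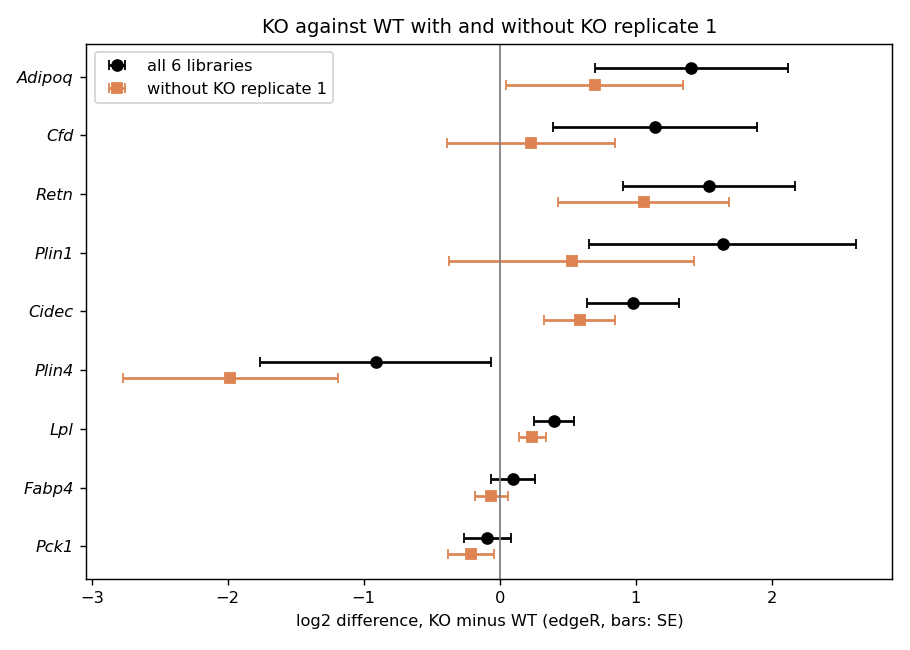
Log2 difference, KO minus WT, of the 9 tested members from edgeR, with all 6 libraries (black circles) and without KO replicate 1 (orange squares). Bars are SE. Leaving out that library moves all members to lower values, Cfd from 1.14 to 0.23 and Plin1 from 1.64 to 0.53.

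Within the Y-linked libraries, where KO replicate 1 is compared with WT replicates 2 and 3, 8 of the 9 tested members were higher in KO, with a median difference of 1.55 on the log2(CPM + 0.5) scale. Adipoq differed there by 2.57, Cfd by 2.66, Retn by 2.38 and Plin1 by 2.85. Within the Xist-high libraries, where KO replicates 2 and 3 are compared with WT replicate 1, 4 of the 9 were higher in KO and the median was -0.01. Adipoq differed there by -0.09, Cfd by -0.53, Retn by 0.19 and Plin1 by -0.59. Over all tested genes both medians were within 0.01 of 0.

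The difference between both sets was tested as an interaction in edgeR, with 0 members past the threshold (lowest adjusted p = 0.168, for Plin4; 0% of all genes). At an unadjusted p under 0.05 stood 3 of the 9 members, Plin4, Cfd and Retn, and 19.4% of all genes. Of the tested members 3 were higher in KO within both sets, with Y-linked and Xist-high differences of 1.55 and 0.44 for Cidec, 0.67 and 0.25 for Lpl, and 2.38 and 0.19 for Retn. Each set holds a single library of 1 genotype, so that library and the genotype cannot be told apart within it.

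**Figure D5:**
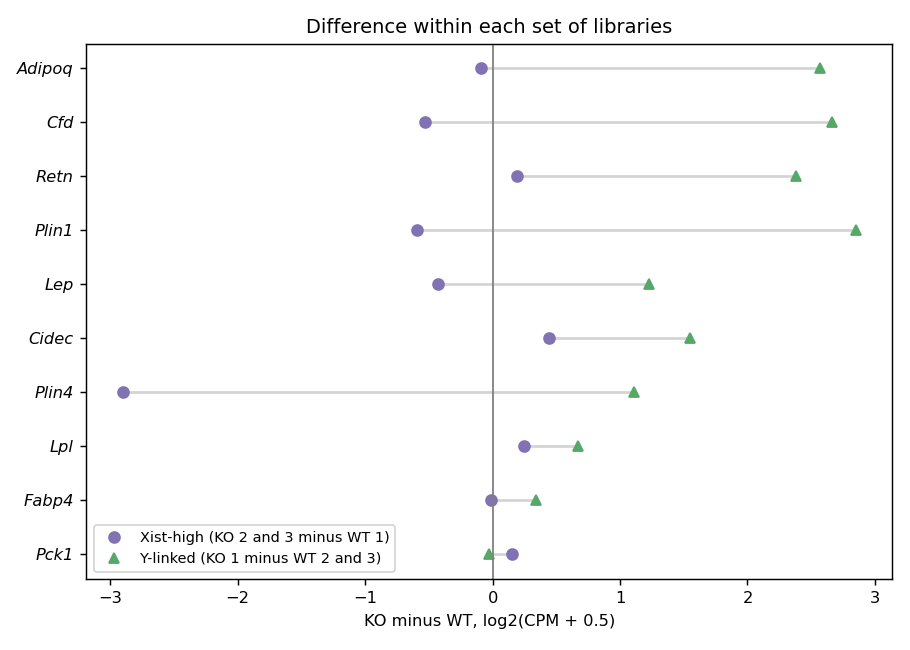
KO minus WT on the log2(CPM + 0.5) scale for each of the 10 genes, within the Xist-high libraries (circles, KO replicates 2 and 3 minus WT replicate 1) and within the Y-linked libraries (triangles, KO replicate 1 minus WT replicates 2 and 3). The triangles of Adipoq, Cfd, Retn and Plin1 lie between 2.38 and 2.85 and their circles between -0.59 and 0.19.

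The median distance to Adipoq in 5 lists of other fat cell genes was 0.97 to 1.07, against 1.03 over all tested genes, and single genes of these lists lay much nearer. The macrophage and endothelium lists lay nearer to Adipoq than these 5 lists, at medians of 0.88 and 0.90. Nearness to Adipoq was thus not particular to fat cell genes. Of 10 transcription factors of fat cell formation, 3 had a higher and 7 a lower mean in KO (median difference -0.08 on the log2 scale), with 0 past edgeR's test. Pparg, the master regulator of adipocytes that colonocytes also express, stood at 69.4 to 90.5 CPM in WT and at 78.7 to 95.4 CPM in KO. The members of this list with the smallest p, Rxra, Cebpa and Nr1h3, had log2 differences of -0.27 ± 0.08, -0.21 ± 0.07 and -0.32 ± 0.11 (SE), with every KO library below every WT library (edgeR adjusted p = 0.829 for each). Their levels did not follow Adipoq: Cebpa was at 104, 105 and 104 CPM in WT and at 94.5, 92.6 and 83.1 CPM in KO.

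Of 15 tested genes of lipolysis and the lipid droplet, 4 had a higher and 11 a lower mean in KO, with a median of -0.08. Abhd5, which activates the triglyceride lipase, had the smallest p (log2 difference -0.22 ± 0.07, SE; edgeR adjusted p = 0.829). Lipe, the hormone-sensitive lipase, had its highest level of 41.6 CPM in KO replicate 1 and 23.7 to 30.5 CPM elsewhere, at rank 461 by distance to Adipoq. Adrb3, the beta-adrenergic receptor of fat cells, likewise reached 14.6 CPM in KO replicate 1 against 3.13 to 7.25 CPM elsewhere. Aqp7, the glycerol channel of fat cells, was too low to test and ran from 0.134 CPM in WT replicate 2 to 1.91 CPM in KO replicate 1.

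Of 14 genes of fat uptake and triglyceride synthesis, 8 had a higher and 6 a lower mean in KO (median 0.03). Lpin1, a phosphatase of triglyceride synthesis, was at 33.4, 25.1 and 31.3 CPM in WT and at 49.9, 44.3 and 39.9 CPM in KO, without overlap. Its log2 difference of 0.58 ± 0.15 (SE) did not pass edgeR's test (adjusted p = 0.829). Cd36, a fatty acid transporter that macrophages and vessels also make, stood at 43.4, 26.1 and 47.1 CPM in WT and at 69.1, 16.5 and 24.9 CPM in KO. Of 13 genes of glucose uptake and fatty acid synthesis, 7 had a higher and 6 a lower mean (median 0.11), with Scd2 at 0.18 ± 0.07 and Fasn at 0.28 ± 0.11 (SE, log2), enzymes that most dividing epithelia use too (edgeR adjusted p = 0.829 for both). Thrsp, a regulator of fatty acid synthesis, lay at rank 10 by distance to Adipoq, with 6.27, 2.81 and 4.88 CPM in WT and 9.06, 5.95 and 9.80 CPM in KO. Of 15 tested genes among 17 others enriched in adipocytes, 6 had a higher and 9 a lower mean (median -0.01), and Car3, described above, belonged to this list. Over these 5 lists together no gene passed edgeR's or DESeq2's test.

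Markers of other cell types moved between the libraries as well. All 10 macrophage genes were tested, and 9 were highest in KO replicate 1. Their summed level there was 718 CPM, against 390 to 395 CPM in the other KO libraries and 386 to 589 CPM in WT. Mrc1, the mannose receptor of resident macrophages, stood at 91.2, 33.0 and 54.0 CPM in WT and at 119, 29.8 and 45.9 CPM in KO, at rank 19 by distance to Adipoq. The endothelial list summed to 387 to 551 CPM in WT and to 364 to 561 CPM in KO, with 3 of its 10 genes highest in KO replicate 1. The colon epithelium list summed to 1921 to 2341 CPM in WT and to 1959 to 2238 CPM in KO. All 11 epithelial genes reached 0.398 to 1.01 counts per exon base, where differences may be understated, so the narrow range of this sum shows nothing about how steady the epithelium was, and Cdx2 of the list ran from 44.9 to 162 CPM. The lymph node and lymphatic list summed to 452, 304 and 216 CPM in WT and to 423, 182 and 140 CPM in KO, so that KO replicate 1 again stood above the other KO libraries. All 10 of its genes had a lower mean in KO (median -0.23), and its median difference was 0.89 within the Y-linked and -1.46 within the Xist-high libraries. The stroma list of 11 genes summed to 984, 712 and 909 CPM in WT and to 971, 704 and 683 CPM in KO. The part of these cell types in the member values, such as macrophages and vessels in those of Lpl and Fabp4, was not tested.

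Of the pancreas list, 7 of 8 genes were in the table, and 3 of them stood apart in 1 library. WT replicate 2 held Ctrb1, Pnlip and Cpa1, enzymes of the exocrine pancreas, at 74.9, 69.1 and 59.5 CPM, while no other library held more than 3.32 CPM of any of them; Pnlip and Cpa1 were chosen after their values were seen. Ctrb1 was the only one of the 3 that was tested (log2 difference -4.02 ± 2.04, SE, carried by that library; edgeR adjusted p = 0.829). Of the list's other exocrine genes, Cela1 did not follow and was at 92.9 to 115 CPM in every library. It reached 0.462 counts per exon base, where differences may be understated. Amy2a5 was counted only in WT replicate 2, at 0.535 CPM from 4 counts, and was at 0 counts elsewhere. Adipoq was at its lowest in that library, 2.01 CPM. KO replicate 1 held 1.53 to 3.32 CPM of Ctrb1, Pnlip and Cpa1. The source of these transcripts was not tested.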

How the data were processed

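The authors deposited raw counts for each Ensembl gene, per the file headers, with no normalisation. STAR, TopHat2, RSEM, HTSeq and DESeq2 with mm10 and GRCm38 are named, per the submitters' processing notes. Their versions and roles, filters, duplicate removal and strand setting are not given in the sources used here. Positions came from GENCODE vM21 (GRCm38), which held 99.8% of the gene IDs, and exon lengths from its basic protein-coding transcripts.

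The 6 colon libraries were fitted together over all genes. After filterByExpr and TMM scaling, edgeR 4.0.16 in R 4.3.3 gave quasi-likelihood F tests with robust dispersions, with Benjamini-Hochberg adjustment over 17195 genes and a threshold of 0.05. Differences are log2 ratios of KO to WT with their SE. Values per library add 0.5 CPM before log2. Alternatives were DESeq2 1.42.0 and limma-voom 3.58.1 as tools, other scalings and filters, the replicate number as a block, each library left out, and the Xist-high or Y-linked status as a covariate. On simulated data with 17195 genes and 200 changed, 35% of 2-fold and 71% of 4-fold changes were called with 10 false calls. Genes varied independently there, and the changed genes were drawn at random from all tested genes. These rates need not hold for members with a wide spread between libraries, such as Adipoq, Retn, Plin1, Plin4 and Cfd.

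Members and lists were chosen with earlier results of these data known. The named genes are the 10 members, S1pr4, up to 4 genes of each list with the smallest p and any gene called, for skeletal muscle, pancreas, brown adipocytes and mesothelium also the most abundant gene, and the 5 genes nearest to Adipoq, of which 1 is not reported here. Lipe, Adrb3, Aqp7, Cd36, Pparg, Mrc1, Lmod1, Cdx2, Pnlip, Cpa1, Amy2a5, Gpm6a, Pdgfra, Fmo2 and Dlk1 fall outside this rule. They were chosen after their values were seen. The replicate numbers were not treated as pairs in the main fit. The chi-square over its degrees of freedom was 5.19 or more for each pair of replicates, above sampling noise. Precision is limited by 3 libraries per group and, for Lep, Retn and Plin1, by low counts.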

Additional observations from a re-analysis of the deposited data

How the results depend on the processing

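No member was called with any scaling, filter, tool, block or covariate tried, or with any library left out. Over all genes, 0 were called except with DESeq2, which called 18. When single libraries were left out, members with a higher mean in KO ran from 6 of 9 to 8 of 10, the latter where Lep passed the filter. Their median difference ran from 0.24 to 1.06, the lowest without KO replicate 1. The median was 0.41 with a mean of at least 50 counts, which leaves 7 members, and 0.34 in limma-voom with quality weights; the cause of the latter was not tested. Of 124 member values under alternatives, 4 changed sign, all between -0.06 and 0.06: Fabp4 at -0.06 without KO replicate 1 and at -0.05 in limma-voom, and Pck1 at 0.02 without WT replicate 2 and at 0.06 with the Xist-high or Y-linked status as a covariate. Plin4, at -0.91 with all libraries, was at 0.00 without WT replicate 1 and so had no direction. With single libraries left out Fabp4 ran from -0.06 to 0.18 and Pck1 from -0.23 to 0.02. With the replicate number as a block the median was 0.93 and 0 members were called. Same-numbered libraries correlated by -0.022, 0.223 and -0.229 in their deviations from the group means, within the range of the other pairs (-0.266 to 0.321). With 3 libraries per group these values cannot show whether same-numbered libraries shared a batch.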

Other observations

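Of 5 receptors of fat cell hormones, 2 had a higher and 3 a lower mean in KO, with 0 past edgeR's test. Adipor1 and Adipor2, the adiponectin receptors, had log2 differences of -0.04 ± 0.06 and -0.08 ± 0.07 (SE; edgeR adjusted p = 0.892 and 0.864). Cdh13, which binds adiponectin at the surface of vessel and muscle cells, stood at 74.6, 27.7 and 50.4 CPM in WT and at 72.9 CPM (KO replicate 2), 53.6 CPM (KO replicate 1) and 133 CPM (KO replicate 3) in KO, a log2 difference of 0.76 ± 0.46 (SE; edgeR adjusted p = 0.829). Among genes of brown adipocytes, 8 of 9 were in the table and 4 were tested, all with a lower mean in KO and 0 past edgeR's test. Cox8b, a respiratory subunit of brown fat and muscle, reached 2.25 CPM at most, and Ppargc1a, which colonocytes also use, had the largest level of the list and a log2 difference of -0.42 ± 0.25 (SE; edgeR adjusted p = 0.829).

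Genes of the mesothelium, the cell layer that covers the colon and the mesentery, were mixed: 7 of 12 were tested, 4 with a higher and 3 with a lower mean in KO and 0 past edgeR's test. Msln stood at 6.03, 2.41 and 1.25 CPM in WT and at 2.30, 8.86 and 6.94 CPM in KO, low in KO replicate 1. Upk1b, which the bladder lining and mesothelium share, stood at 3.31, 6.42 and 4.38 CPM in WT and at 4.34, 10.2 and 10.1 CPM in KO (log2 difference 0.80 ± 0.42, SE; edgeR adjusted p = 0.829). Gpm6a of the same list was higher in KO replicate 1 (7.92 CPM) than in KO replicates 2 and 3 (1.98 and 2.59 CPM) and reached 9.23 CPM in WT replicate 1. Of 11 stroma genes, 4 had a higher and 7 a lower mean in KO, with 0 past edgeR's test. Pdgfra, a receptor of fibroblasts and fat cell precursors, was highest in KO replicate 1 at 185 CPM, against 122 and 75 CPM in KO replicates 2 and 3. Only this 1 of the 11 stroma genes was highest in that library. Fmo2 stood at 110, 56.2 and 125 CPM in WT and at 119, 23.7 and 34.9 CPM in KO. Dlk1 of the same list went the other way within KO. It stood at 5.32, 24.3 and 3.25 CPM in WT and at 3.32, 32.4 and 32.5 CPM in KO. Pi16, a marker of adventitial fibroblasts, was highest in WT replicate 1 at 50 CPM and ran from 7.94 to 18.6 CPM in the other libraries.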
